A study of Mus musculus with 6 samples.

Results

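The fibrillar collagen genes are the 9 collagen genes *Col1a1*, *Col1a2*, *Col3a1*, *Col5a1*, *Col5a2*, *Col5a3*, *Col11a1*, *Col24a1* and *Col27a1*, chosen by gene family from the 49548 genes of the count table. All 9 are in the table and all 9 passed the filter on low values, a minimum of 10 counts in any 2 libraries, which 15789 genes passed. The libraries hold poly(A)-selected mRNA of native cardiac fibroblasts (CFs) from hearts of C57BL/6J mice aged 5 weeks, 3 from wild-type (WT) mice and 3 from CharmeKO mice, which carry a polyadenylation signal inserted at the locus of the long non-coding RNA *Charme*. CFs were isolated by enzymatic dissociation, red-cell lysis and depletion of cells with hematopoietic lineage markers, so that the preparations can hold other cells of the heart, and the labels of the samples also name a culture medium. No positive sort for fibroblasts was described. Whether each library came from 1 heart or from pooled hearts is not given in the sources used here, and p-values over libraries measure only the spread between these samples.

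Fibrillar collagens are the rope-forming proteins of connective tissue. Their chains carry glycine at regular intervals over a long uninterrupted helical stretch, are secreted as procollagens, are trimmed of their propeptides and then assemble side by side into fibrils. In the heart, types I and III form most of the interstitial fibrils, type V lies inside them and sets their number and width, type XI does the same in cartilage, and types XXIV and XXVII are later-described members with a shorter and imperfect helix. Cardiac fibroblasts are the main source of these transcripts in the myocardium.

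In the gene models of GENCODE mouse release 21, the longest uninterrupted run of codon triplets that start with glycine counted between 337 triplets in *Col5a3* and 344 in *Col3a1* for the 7 genes of types I, III, V and XI, and 216 and 217 in *Col24a1* and *Col27a1*. Of 21951 protein-coding genes, 11 have a run of at least 200 triplets, namely the 9 studied here together with the cartilage genes *Col2a1* and *Col11a2*. In mouse, *Col1a1* lies on chromosome 11, *Col1a2* on 6, *Col3a1* and *Col5a2* on 1, *Col5a1* on 2, *Col5a3* on 9, *Col11a1* and *Col24a1* on 3, and *Col27a1* on 4. The exons show the same repeat. Between 41.2% of the coding exons in *Col1a1* and 55.0% in *Col24a1* are exactly 54 bp long, which is 6 glycine triplets, against 0.674% of all coding exons, and 74.6% to 88.5% of the exons of each gene have a length divisible by 9. The stretches that the study's qPCR primers bound are shown because they make this repeat visible in *Col1a1* and *Col3a1*. The study describes qPCR of *Col1a1* in native and in cultured CFs, and of *Col3a1* in cultured CFs. Glycine codons of the reading frame stand in capitals, 12 of 37 full codons in *Col1a1*, where the repeat fills the whole stretch, and 9 of 48 in *Col3a1*, where the repeat sets in only in the latter part. Both stretches lie within the coding sequence.
Col1a1 amplicon: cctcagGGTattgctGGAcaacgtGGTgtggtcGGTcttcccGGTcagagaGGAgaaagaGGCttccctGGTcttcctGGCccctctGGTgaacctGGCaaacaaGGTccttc
Col3a1 amplicon: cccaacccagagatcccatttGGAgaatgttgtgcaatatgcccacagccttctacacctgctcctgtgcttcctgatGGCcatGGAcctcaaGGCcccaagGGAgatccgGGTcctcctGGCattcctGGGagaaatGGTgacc

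Promoter sequences of RefSeq on GRCm38.p6 matched 7 of the 9 genes, all except *Col1a1* and *Col5a2*. The 200 bases from −250 to −51 of the annotated start were searched on both strands for the cores of 3 promoter boxes, whose matches do not overlap in the windows shown. The core of the NF-Y box, CCAAT, was present in 3 of the 7 windows and in 28.4% of 32851 windows of the same length. The core of the GC box that Sp factors bind, GGGCGG, was present in 5 windows (24.6% of all). The letters TATAAA, those of a TATA box, were present in 1 window (9.14% of all). Bases nearer to the start than −51 were not searched, so the windows cannot show whether a gene has a TATA box close to its start. The windows of *Col3a1*, *Col5a1* and *Col5a3* are shown, with these motifs in capitals, because the 3 genes had lower values together in CharmeKO libraries and yet differ in base composition, from 35.0% G and C in *Col3a1* to 78.0% in *Col5a1*. A match is a description of the letters only.
Col3a1, chr1:45311288-45311487, + strand, TATAAA at −117 to −112: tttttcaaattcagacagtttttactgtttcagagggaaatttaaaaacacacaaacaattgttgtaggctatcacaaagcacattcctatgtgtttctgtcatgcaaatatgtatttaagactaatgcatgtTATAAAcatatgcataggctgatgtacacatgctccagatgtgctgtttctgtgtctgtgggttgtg
Col5a1, chr2:27886175-27886374, + strand, GGGCGG at −73 to −68 and, on the other strand, at −205 to −200: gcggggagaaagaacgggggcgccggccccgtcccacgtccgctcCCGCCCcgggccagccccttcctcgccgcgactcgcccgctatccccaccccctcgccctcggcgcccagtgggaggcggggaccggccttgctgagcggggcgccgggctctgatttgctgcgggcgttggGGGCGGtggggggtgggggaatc
Col5a3, chr9:20815118-20815317, − strand, CCAAT at −122 to −118 and GGGCGG on the other strand at −63 to −58: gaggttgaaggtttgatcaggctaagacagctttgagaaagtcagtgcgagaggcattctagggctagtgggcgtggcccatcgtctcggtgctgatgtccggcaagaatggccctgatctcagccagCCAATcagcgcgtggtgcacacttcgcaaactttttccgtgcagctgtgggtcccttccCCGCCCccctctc

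Reads counted on genes ranged from 9595701 to 42101393 in WT and from 23550718 to 31048606 in CharmeKO libraries. The limit that a count of 0 allows, 3 counts, was 0.0713 to 0.313 CPM (counts scaled to the library size after TMM normalization) depending on the library and covers counting error only. *Charme* itself had 26, 15 and 4 counts in WT and 7, 0 and 0 counts in CharmeKO replicates 1 to 3 (adjusted p = 0.362, edgeR), so that the targeted transcript, near the limit of detection in these cells, gave only a weak check of the labels. The cells carried fibroblast transcripts, with a summed level of 20 fibroblast markers between 32303 and 39493 CPM in WT and between 32929 and 36727 CPM in CharmeKO libraries, beside those of endothelial and red blood cells. The largest part of this sum was *Gsn*, at 17340 to 26456 CPM in WT and 20095 to 22393 CPM in CharmeKO. Of the 19 markers tested, 13 had lower and 6 higher estimates in CharmeKO. WT replicate 2 had the lowest value of the WT group, and CharmeKO replicate 3 the highest value of its group, in each of the 6 abundant genes of types I, III and V.

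Between the groups, these 6 abundant genes had lower mean values in CharmeKO than in WT native CFs, at 45.9% of the WT level for *Col5a3* to 68.9% for *Col1a2*. The genes of the less abundant types XI, XXIV and XXVII did not share this direction. With edgeR's quasi-likelihood test over all 15789 genes and Benjamini-Hochberg adjustment, 0 of the 9 genes passed an adjusted p of 0.05, a threshold that 0.412% of the tested genes passed as lower and 0.83% in either direction. At an unadjusted p under 0.05, 6 of 9 were lower and 0 higher, against 6.87% of the tested genes lower and 12.8% in either direction. DESeq2 on the same genes called 2 lower, *Col1a1* and *Col5a2*, against 1.55% of all genes lower and 2.55% in either direction. Without the filter on low values, edgeR called 5 of 9 lower, *Col1a1*, *Col3a1* and the 3 type V genes, against 1.81% of all genes. The estimates hardly moved in that fit. *Col5a3* was at −1.12 on the log2 scale with and without the filter, while its edgeR adjusted p went from 0.104 to 1.29e-10. These calls therefore do not reflect larger differences, and the cause of the lower p-values was not tested. By sign alone, 6 of 9 estimates were below 0, against 48.8% of the tested genes. The median log2 fold change was −0.61 over the 9 genes and 0.01 over all tested genes, of which the middle part between the quartiles ran from −0.20 to 0.20. In bulk libraries, fewer cells of a type and less RNA per cell cannot be told apart.

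**Figure D1:**
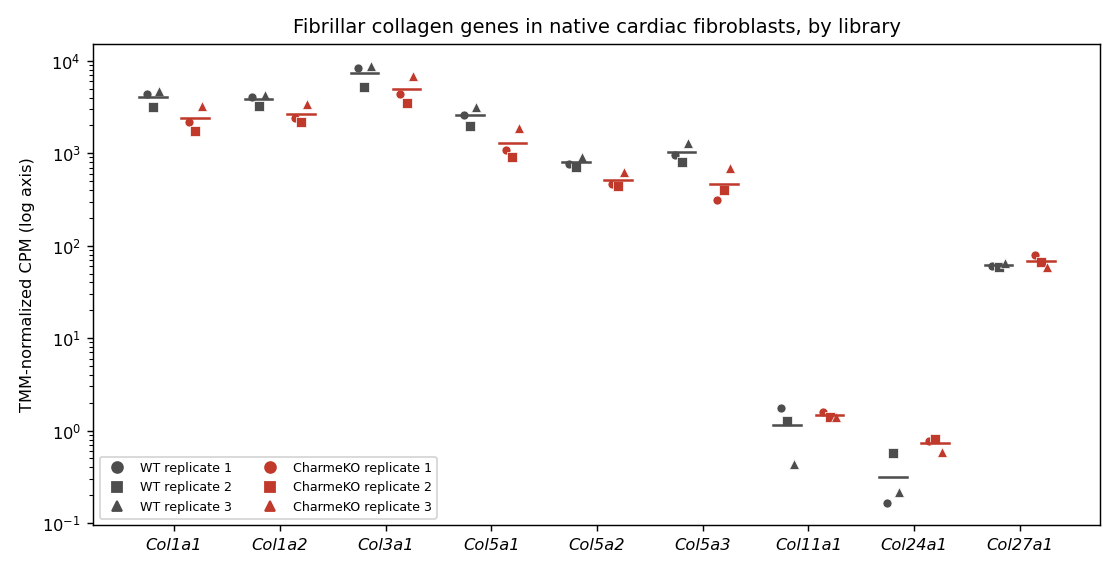
TMM-normalized CPM (log axis) of each fibrillar collagen gene in the 3 WT libraries (grey) and the 3 CharmeKO libraries (red), with marker shapes for replicates and lines for group means. The CharmeKO points of Col5a1, Col5a2 and Col5a3 all lie below the WT points, those of Col1a1, Col1a2 and Col3a1 overlap with them, and Col11a1 and Col24a1 stay under 2 CPM.

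*Col1a1* and *Col1a2* encode both chains of type I collagen, the main load-bearing fibril protein of the heart. *Col1a1* was at 4374, 3132 and 4657 CPM in WT replicates 1 to 3 and at 2180, 1733 and 3226 CPM in CharmeKO replicates 1 to 3. The groups overlapped through 1 pair, since CharmeKO replicate 3 lay above WT replicate 2. The log2 fold change was −0.77 with an unadjusted 95% interval from −1.27 to −0.27 (standard error, SE, 0.23, adjusted p = 0.189 in edgeR and 0.0102 in DESeq2), and CharmeKO was at 58.7% of WT.

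*Col1a2* was at 4093, 3220 and 4266 CPM in WT and at 2386, 2176 and 3412 CPM in CharmeKO. The same pair of libraries overlapped. Its log2 fold change was −0.54 (SE 0.19, adjusted p = 0.269 in edgeR and 0.0611 in DESeq2), and neither tool called it. Without WT replicate 2 it was −0.65 and without CharmeKO replicate 3 it was −0.76.

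*Col3a1*, whose chains form type III homotrimers that copolymerize with type I, ranked 8 of all tested genes by mean CPM. It was at 8371, 5202 and 8813 CPM in WT and at 4397, 3486 and 6789 CPM in CharmeKO, with CharmeKO replicate 3 above WT replicate 2. It had a log2 fold change of −0.61 (SE 0.25, adjusted p = 0.347 in edgeR and 0.507 in DESeq2).

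Type V collagen nucleates type I fibrils and keeps them thin, and its 3 chains were the genes in which every CharmeKO library lay below every WT library, which held for 8.59% of the tested genes. *Col5a1*, the chain present in most type V molecules, was at 2592, 1955 and 3202 CPM in WT and at 1085, 914 and 1853 CPM in CharmeKO. The highest CharmeKO library stayed just under the lowest WT library. The log2 fold change was −1.01 (SE 0.26, adjusted p = 0.126 in edgeR and 0.157 in DESeq2), or 49.7% of WT.

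*Col5a3*, a chain of restricted type V molecules, had the lowest fraction of its WT level. It was at 958, 795 and 1303 CPM in WT and at 309, 404 and 689 CPM in CharmeKO, with no overlap. The log2 fold change was −1.12 (SE 0.27, adjusted p = 0.104 in edgeR and 0.135 in DESeq2).

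*Col5a2*, the partner chain of *Col5a1*, was the most even of the type V genes between libraries. It was at 765, 702 and 918 CPM in WT and at 459, 443 and 626 CPM in CharmeKO, again with no overlap. The log2 fold change was −0.64 (SE 0.17, adjusted p = 0.134 in edgeR and 0.00486 in DESeq2). DESeq2 therefore called the type V gene with the smallest difference of the 3, and neither *Col5a1* nor *Col5a3*.

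*Col27a1*, which encodes a chain of cartilage and developing tissues, was at 60.7, 59.3 and 64.5 CPM in WT and at 79.6, 66.1 and 58.8 CPM in CharmeKO. Its groups overlapped, and the log2 fold change was 0.15 with an unadjusted 95% interval from −0.12 to 0.42 (adjusted p = 0.676, edgeR). That interval lies above the point estimates of all 6 genes of types I, III and V. It overlaps the interval of *Col3a1* (−1.17 to −0.05) and meets that of *Col1a2* (upper end −0.12). Differences between these genes were not tested.

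*Col11a1*, the type XI partner of the cartilage fibril, had 74, 33 and 4 counts in WT and 45, 34 and 43 counts in CharmeKO, or 0.430 to 1.74 CPM over the 6 libraries. Its log2 fold change was 0.27 (SE 0.48, adjusted p = 0.866, edgeR) and −0.043 without WT replicate 3, the library with 4 counts. *Col24a1*, best known from bone, had 7, 15 and 2 counts in WT and 22, 20 and 18 in CharmeKO, and thus reached 10 counts in 1 WT library and in all 3 CharmeKO libraries. The CharmeKO values, 0.592 to 0.818 CPM, lay above the WT values, 0.165 to 0.571 CPM, by a narrow margin (log2 fold change 1.16, SE 0.71, adjusted p = 0.531, edgeR). No difference in either gene was detectable at this depth.

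**Figure D2:**
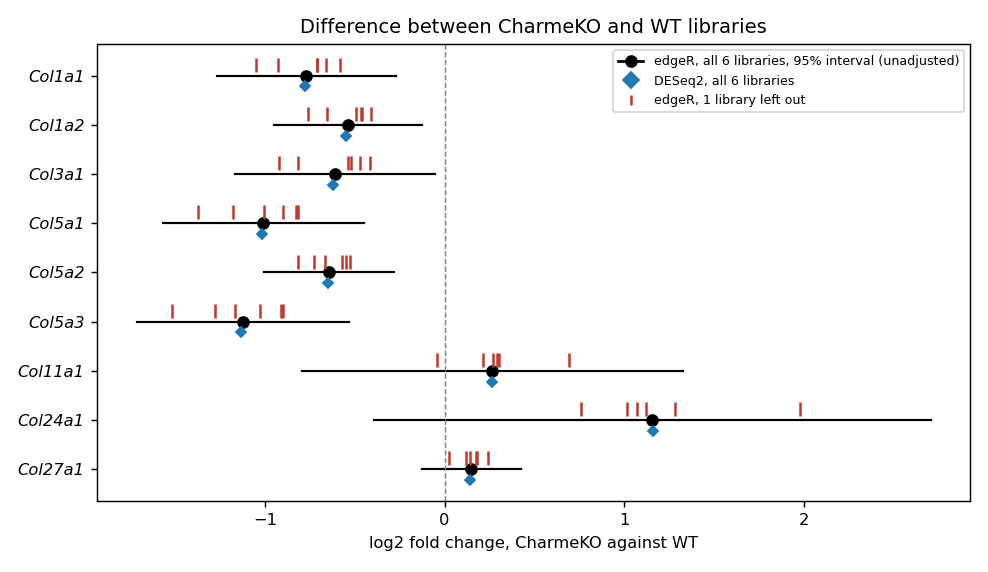
Log2 fold change of each gene, CharmeKO against WT, as the edgeR estimate with its unadjusted 95% interval (black), the DESeq2 estimate (blue) and the edgeR estimates with 1 library left out (red ticks). The 6 genes of types I, III and V lie below 0 in every fit shown, and the intervals of Col11a1, Col24a1 and Col27a1 include 0.

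Single libraries moved the calls of the 6 abundant genes. Without WT replicate 2, and likewise without CharmeKO replicate 3, edgeR called the same 4 genes lower, *Col1a1*, *Col5a1*, *Col5a2* and *Col5a3*, where 1.4% and 0.773% of the genes tested in these fits were called lower. Without any one of the other 4 libraries it called 0. Over the 14 alternative fits, *Col5a3* ranged from −1.52 to −0.90, *Col5a1* from −1.37 to −0.81, *Col1a1* from −1.05 to −0.58, *Col5a2* from −0.82 to −0.53, *Col3a1* from −0.92 to −0.42 and *Col1a2* from −0.76 to −0.41 on the log2 scale. No fit turned the direction of these 6 genes.

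Summed over all 9 genes, fibrillar collagen transcripts were at 21217, 15067 and 23224 CPM in WT replicates 1 to 3 and at 10899, 9223 and 16656 CPM in CharmeKO replicates 1 to 3. This is a mean of 19836 ± 4250 (SD, n = 3) against 12259 ± 3898 CPM (SD, n = 3), or 61.8% of WT. The groups overlapped in CharmeKO replicate 3 and WT replicate 2 (two-sided exact permutation test, p = 0.2, where 3 libraries against 3 cannot go below 0.1). As a share of all counts of a library, the 9 genes took 2.14%, 1.42% and 2.25% in WT and 1.16%, 0.957% and 1.63% in CharmeKO.

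Levels of different genes were compared as CPM per kb of the transcript with the longest coding sequence. In WT, *Col3a1* was highest at 1341 ± 354 CPM per kb (SD, n = 3), followed by *Col1a2* at a mean of 722 and a range of 602 to 798, and by *Col1a1* at 684 ± 137. The level of *Col1a2* exceeded that of *Col1a1* in 6 of 6 libraries, but their WT values overlapped and the order of these neighbours turned when the union of all exons was taken as length. By that length *Col1a2* had a WT mean of 311 CPM per kb, close to *Col5a1* at 304. The distance between *Col1a2* and type V thus depends on the length taken. Type V followed with *Col5a1* at 307 ± 74.2, *Col5a3* at 166 ± 42.4 and *Col5a2* at 120 ± 16.8 CPM per kb (SD, n = 3).

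*Col5a3* and *Col5a2* overlapped, whereas *Col5a1* stood above both in each of the 6 libraries. Far below, *Col27a1* was at 8.08 ± 0.358, *Col11a1* at 0.149 ± 0.0864 and *Col24a1* at 0.0444 ± 0.0310 CPM per kb (SD, n = 3) in WT. Fibrillar collagen message in these cells was thus that of types III, I and V, with type V represented by 3 chains. Of the summed level per kb, *Col5a1* took 8.57%, 9.15% and 9.75% in WT and 6.93%, 6.90% and 7.77% in CharmeKO, without overlap. The shares of *Col1a1* (20.1% to 20.8% in WT, 18.5% to 19.7% in CharmeKO) and *Col5a3* (4.36% to 5.45% in WT, 2.71% to 4.19% in CharmeKO) were also lower without overlap. That of *Col11a1*, at few counts, was higher without overlap by a minimal margin (highest WT share 0.00644%, lowest CharmeKO share 0.0065%). By level, the groups did not overlap in either direction in 18.2% of all tested genes. How often such shares do not overlap for other genes was not computed. *Col5a2* took 3.21% to 4.17% in WT and 3.33% to 4.24% in CharmeKO, and these ranges overlapped. Shares of 1 sum are not independent of each other.

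**Figure D3:**
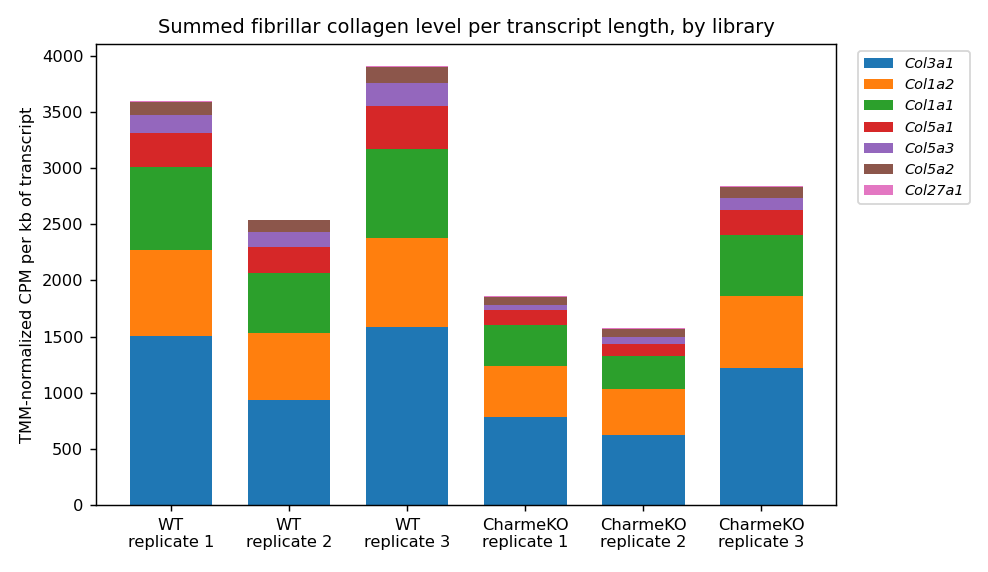
Summed level of the fibrillar collagen genes in each library, in TMM-normalized CPM per kb of transcript, with colours for genes (Col11a1 and Col24a1, each under 0.3 CPM per kb, are left out). Col3a1, Col1a2 and Col1a1 make up most of each bar, and CharmeKO replicate 3 stands above WT replicate 2.

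Ratios between chains within a library do not depend on how libraries are scaled, and 8 pairs were compared, with p-values adjusted over them. The chains of type I had different factors by value. The log2 ratio of *Col1a1* to *Col1a2* counts was 0.096, −0.040 and 0.13 in WT replicates 1 to 3 and −0.13, −0.33 and −0.081 in CharmeKO replicates 1 to 3. Every CharmeKO ratio lay below every WT ratio, with a difference of −0.24 (two-sided exact permutation test, p = 0.1, the smallest possible, adjusted p = 0.2), which is 84.6% of the WT ratio.

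Between fibril types, *Col5a1* had lower values relative to *Col3a1* and to *Col1a1*. The log2 ratio of *Col3a1* to *Col5a1* was 1.69, 1.41 and 1.46 in WT and 2.02, 1.93 and 1.87 in CharmeKO, with no overlap and a difference of 0.42 (exact permutation test, p = 0.1, adjusted p = 0.2). Leaving out any 1 library kept the difference within 0.36 to 0.50. The log2 ratio of *Col1a1* to *Col5a1* was 0.76, 0.68 and 0.54 in WT and 1.01, 0.92 and 0.80 in CharmeKO, a difference of 0.25 without overlap (exact permutation test, p = 0.1, adjusted p = 0.2).

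*Col3a1* and *Col5a2* are direct neighbours on chromosome 1, on opposite strands with 0 annotated genes between them. A link of this position to their levels was not tested. Their ratio had the smallest difference of the 8 pairs and the largest SD over WT libraries (0.286). The log2 ratio was 3.45, 2.89 and 3.26 in WT and 3.26, 2.98 and 3.44 in CharmeKO, a difference of 0.02 (exact permutation test, p = 1.0). The groups overlapped, and the difference was −0.13 without WT replicate 2 and −0.084 without CharmeKO replicate 3. The ratio of *Col5a1* to its partner *Col5a2* was 1.76, 1.48 and 1.80 in WT and 1.24, 1.05 and 1.56 in CharmeKO, a difference of −0.40 with overlap in CharmeKO replicate 3 (exact permutation test, p = 0.2). For *Col5a1* to *Col5a3* the difference was 0.13, and for *Col1a2* to *Col3a1* 0.07, both with overlapping groups (exact permutation test, p = 0.7 and 0.5). Of the 8 pairs, 4 did not overlap between groups, *Col1a1* to *Col3a1* being the last of them at a difference of −0.17 (−0.10 without WT replicate 2), and none had an adjusted p below 0.2 in the exact test. The pairs share genes and are not independent of each other. How often ratios of other gene pairs do not overlap was not computed.

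**Figure D4:**
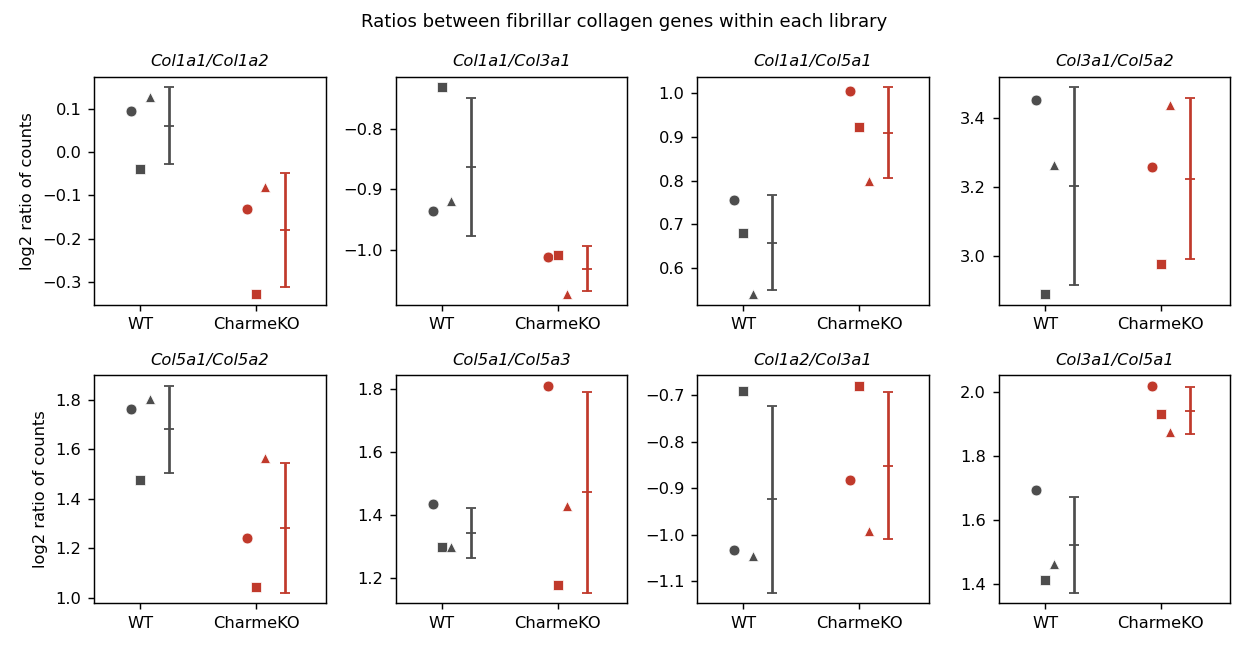
Log2 ratio of counts between 2 fibrillar collagen genes in each library, for 8 pairs, with WT in grey, CharmeKO in red, marker shapes for replicates 1 (circle), 2 (square) and 3 (triangle), and the mean with its SD at the right of each group. The groups are apart for Col1a1/Col1a2, Col1a1/Col3a1, Col1a1/Col5a1 and Col3a1/Col5a1 and overlap for the other 4 pairs, and each panel has its own vertical scale.

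Fibrillar collagen transcripts were next set beside fibroblast genes that encode no matrix protein. In bulk libraries, reads of these genes from other cells of the preparations cannot be told apart. A ratio to them is therefore not a level per fibroblast. The log2 ratio of the summed fibrillar collagens to *Vim*, the intermediate filament of mesenchymal cells, was 2.96, 2.76 and 3.13 in WT and 2.33, 2.21 and 2.70 in CharmeKO, without overlap and with a difference of −0.54. Relative to *Ddr2*, a collagen receptor of fibroblasts, the ratio was 6.35, 6.28 and 6.44 in WT and 5.63, 5.56 and 6.22 in CharmeKO, a difference of −0.55 without overlap. Relative to *Pdgfra* the difference was −0.66 and relative to a list of 16 non-matrix fibroblast genes −0.71, and in both the groups overlapped. The *Pdgfra* difference was −0.39 without CharmeKO replicate 2 and −1.0 without CharmeKO replicate 3. *Gsn* alone made up 72.9% to 81.7% of the summed list in each library, so that the ratio to the list is close to a ratio to this gene. Exact permutation tests gave p = 0.1 for *Vim* and *Ddr2* and p = 0.2 for *Pdgfra* and the list, with an adjusted p of 0.2 for each of the 4. The summed level of the 16 non-matrix genes was between 23780 and 32394 CPM in WT and between 25237 and 28354 CPM in CharmeKO, and edgeR called 1 of them, *Gfpt2*, lower (log2 fold change −1.17, adjusted p = 0.00358). These genes were not uniform: *Vim* and *Ddr2* each had a log2 fold change of −0.18 and *Pdgfra* −0.05, whereas *Cd248* had −0.78 (adjusted p = 0.166 in edgeR and 0.00863 in DESeq2) and *Thy1* −0.71 (adjusted p = 0.401 in edgeR and 0.624 in DESeq2), which is within the range of the abundant fibrillar collagens. *Cd248* and *Thy1* were singled out after their values were seen.

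The summed markers of some other cells were apart between the groups. The summed level of 16 cardiomyocyte genes was 427 to 540 CPM in WT and 619 to 954 CPM in CharmeKO, without overlap, with 14 of 14 tested genes higher, 0 of the 16 genes at 0 in all libraries, and *Myh6*, *Tnni3* and *Mb* called by edgeR (log2 fold changes 0.85, 0.95 and 0.90, adjusted p = 0.0292, 0.0200 and 0.0339). The 10 epicardial and mesothelial genes summed to 74.3 to 91.5 CPM in WT and 50.5 to 57.9 CPM in CharmeKO, with 8 of 9 tested genes lower and *Wt1* called (−0.66, adjusted p = 0.0189 in edgeR). Of 16 genes of the dissociation response, *Hspa1a* and *Hspa1b* were called higher (1.30 and 1.59, adjusted p = 0.0116 and 0.0176 in edgeR), while the sum ran from 37513 to 55321 CPM in WT, with the highest value in WT replicate 2, and from 42362 to 48228 CPM in CharmeKO. The 9 genes of cartilage and valve cells were at 97.1 to 109 CPM in WT and 76.7 to 94.7 CPM in CharmeKO, without overlap and with 0 calls. Within that list 4 of 7 tested genes were higher and 3 lower, with a median log2 fold change of 0.31, and the lower sum came from its most abundant genes *Sox9*, at 74.2 CPM in WT against 60.5 CPM in CharmeKO, and *Comp*, at 24.7 against 18.5 CPM. Endothelial genes (9426 to 11829 and 10037 to 11986 CPM), pericyte, smooth muscle, leukocyte, erythroid and Schwann cell genes had summed levels that overlapped between groups. The single edgeR call among them was *Slc4a1* of red cells, lower in CharmeKO (−1.82, adjusted p = 0.00555 in edgeR). DESeq2 also called *Cspg4* of pericytes and *Smtn* of smooth muscle lower (adjusted p = 0.0158 and 0.0295 in DESeq2), both singled out after their values were seen. The 20 fibroblast markers had 2 edgeR calls, both lower, *Gfpt2* and the laminin gene *Lamc3* (−2.70, adjusted p = 0.00148 in edgeR). DESeq2 also called *Mfap5* lower (adjusted p = 0.0150 in DESeq2), likewise singled out. The part of these cells and genes in the fibrillar collagen levels was not tested.

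The other genes that make, process and bind fibrillar collagen were counted in 8 lists by function. Of the 119 different genes tested in them, 0 passed the threshold in edgeR, where 0.83% of all tested genes did. In DESeq2 8 of the 119 did (6.72%, against 2.55% of all genes), 7 of them lower (5.88%, against 1.55%). At an unadjusted p under 0.05 in edgeR, 23 were lower (19.3%, against 6.87% of all genes) and 4 higher. The list with the lowest median was propeptide removal, at −0.40 over 11 tested genes, of which 5 were lower (45.5%, against 6.87% of all tested genes) and 1 higher at an unadjusted p under 0.05.

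Propeptide removal turns soluble procollagen into fibril-forming collagen. *Adamts2*, the main N-proteinase of procollagens I and III, was at 588, 478 and 659 CPM in WT and at 330, 257 and 429 CPM in CharmeKO, without overlap. Its log2 fold change was −0.76 (SE 0.19, adjusted p = 0.118 in edgeR and 0.00240 in DESeq2). *Fn1*, counted in this list because fibronectin binds the C-proteinase, had a log2 fold change of −0.51 (adjusted p = 0.233 in edgeR and 0.0381 in DESeq2). Singled out after their values were seen, *Bmp1*, the C-proteinase, was at 434 ± 50.5 CPM in WT against 291 ± 39.6 CPM in CharmeKO (SD, n = 3, DESeq2 adjusted p = 0.00400), and its low-abundance relative *Tll2* was higher, at 10.7 ± 1.91 and 18.4 ± 3.89 CPM (SD, n = 3, DESeq2 adjusted p = 0.0203).

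Upstream of secretion the lists lay closer to 0. Chain modification and folding had a median of −0.10 over 24 tested genes, with 3 lower (12.5%, against 6.87% of all tested genes) and 0 higher at an unadjusted p under 0.05, and thus 12.5% in either direction against 12.8% of all genes. *Serpinh1*, the collagen chaperone HSP47, was at 1235 ± 294 CPM in WT against 1212 ± 224 CPM in CharmeKO (SD, n = 3), a log2 fold change of −0.03 (adjusted p = 0.971, edgeR), beside the chains it folds at 45.9% to 68.9%. *Sparc*, which binds collagen during secretion, had a log2 fold change of −0.32 (adjusted p = 0.516, edgeR).

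Procollagen export had a median of −0.02 over 13 tested genes. The coat genes *Sec31a* and *Sar1a* had log2 fold changes of −0.15 and 0.09 (adjusted p = 0.677 and 0.829, edgeR). In the 5 cross-linking genes, all lower by value with a median of −0.19, the highest were the lysyl oxidases *Loxl1* (−0.57, adjusted p = 0.275) and *Loxl2* (−0.77, adjusted p = 0.291, edgeR).

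Outside the fibril, 17 tested fibril-surface partners had a median of −0.22, with 5 lower (29.4%, against 6.87% of all tested genes) and 2 higher at an unadjusted p under 0.05. *Tnxb*, the tenascin that spaces collagen fibrils, had a log2 fold change of −0.48 (adjusted p = 0.351, edgeR). *Fmod*, a small proteoglycan on the fibril surface, was the DESeq2 call of this list, at 20.6 ± 3.06 and 9.33 ± 5.66 CPM (SD, n = 3, DESeq2 adjusted p = 0.0231). In contrast, *Dcn*, which encodes decorin of the same proteoglycan family, was at 2997, 3395 and 3163 CPM in WT and at 3945, 3730 and 4045 CPM in CharmeKO, above WT in each library (log2 fold change 0.29, adjusted p = 0.381 in edgeR). *Fmod* and *Dcn* were singled out after their values were seen.

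Receptors had a median of −0.18 over 12 tested genes, with *Itgb1* at 0.07 and the uptake receptor *Mrc2* at −0.27 (adjusted p = 0.873 and 0.451, edgeR). The 11 tested genes of collagen cleavage had a median of −0.02. Within them *Mmp2*, a gelatinase, was at 1266, 1770 and 1608 CPM in WT and at 898, 877 and 1158 CPM in CharmeKO, without overlap (log2 fold change −0.66, adjusted p = 0.123 in edgeR and 0.00227 in DESeq2).

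*Mmp14*, the membrane-bound activator of *Mmp2*, and *Timp2*, the inhibitor that takes part in this activation, were the other DESeq2 calls of the list, at log2 fold changes of −0.54 and −0.42 (adjusted p = 0.102 and 0.238 in edgeR, 0.00367 and 0.0361 in DESeq2), both singled out after their values were seen. *Timp3* had −0.17 (adjusted p = 0.739, edgeR). The 28 tested regulators of type I collagen transcription had a median of −0.10, with 4 lower (14.3%) and 0 higher at an unadjusted p under 0.05, where 6.87% of all tested genes were lower and 12.8% passed in either direction, and the highest by level, *Egr1* and *Ybx1*, had log2 fold changes of −0.05 and 0.24 (adjusted p = 0.937 and 0.483, edgeR). Of the fibrillar collagens of cartilage, *Col2a1* was under the count filter and *Col11a2* was at 7.94 ± 0.764 CPM in WT against 4.81 ± 1.91 CPM in CharmeKO (SD, n = 3, log2 fold change −0.73, adjusted p = 0.325 in edgeR).

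**Figure D5:**
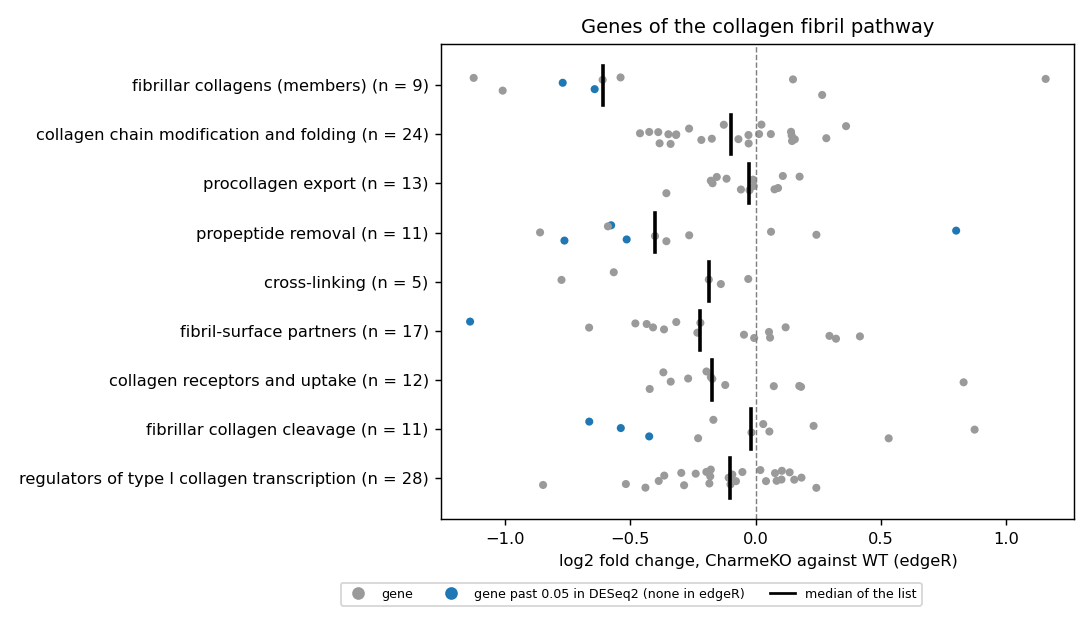
Log2 fold change, CharmeKO against WT, of each tested gene of the fibrillar collagens and of 8 lists of genes that make, process, bind, cleave or regulate them, with the median of each list as a black bar and genes past an adjusted p of 0.05 in DESeq2 in blue. The medians are −0.61 for the fibrillar collagens, −0.40 for propeptide removal and between −0.22 and −0.02 for the other 7 lists.

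Across the 6 libraries, the genes whose log2 CPM followed *Col1a1* most closely among 8913 genes with a mean of at least 10 CPM were *Txnrd1* (Pearson r = 0.996), *Hr* (0.996), *Myadm* (0.995), *Metrnl* (0.994) and *Gstm5* (0.993). *Col1a2* stood at rank 3, *Col5a1* at rank 8, *Col3a1* at rank 30, *Col5a2* at rank 68, *Col5a3* at rank 261 and *Col27a1*, with r = −0.52, at rank 6734. For *Col3a1* the closest genes were *Smo*, *Icmt*, *Efemp2*, *Pdcd6ip* and *Fscn1*, with r between 0.992 and 0.993, and *Col1a2* and *Col1a1* stood at ranks 20 and 22. *Col5a1* stood at rank 76 and the neighbouring gene *Col5a2* at rank 240 (r = 0.908). These correlations rest on 6 libraries that share 2 groups and describe these libraries only.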

How the data were processed

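Native CF mRNA was sequenced in 6 directional poly(A) libraries. The authors aligned Q30-filtered reads with STAR (version not given in the sources used here) to a mouse assembly, GRCm39 per the labels, which also list GRCh38, and deposited raw counts per gene from STAR's GeneCounts, "reverse" configuration, on an Ensembl annotation to which *Charme* was added. Reads in more than 1 gene of the same strand are not counted by this mode. *Col1a2*, *Col3a1*, *Col5a2*, *Col24a1* and *Col27a1* overlap another gene of their strand in GENCODE. Totals ranged from 9595701 to 42101393 counts.

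A minimum of 10 counts in any 2 libraries was set for testing (TMM, quasi-likelihood F test, edgeR 4.0.16, R 4.3.3), with DESeq2 1.42.0 as an alternative. On simulated data with 195 tested genes changed by 1.5 on the log2 scale among 15311 genes, edgeR recovered 153 and called 7 others and DESeq2 recovered 158 and called 22 others. This change was larger than the main estimates of the genes of types I, III and V, −1.12 to −0.54. Recovery at their sizes was not simulated. Among 15297 genes of a simulation without changes, edgeR called 1 and DESeq2 8. Ratios used counts plus 0.5 and exact two-sided permutation tests (scipy 1.17.1). Other alternatives were other normalizations and filters, a GC and length correction, the replicate block and each library left out. Gene models came from GENCODE release 21 (GRCm38) and promoters from RefSeq (GRCm38.p6), another build than that of the counts. Primer sequences are those of the study. The gene family and the lists were chosen with earlier results of these data known. Named are all 9 genes, the 2 highest genes of each pathway list, and of each marker list the genes past the threshold, with others named as singled out. Libraries were compared as labelled. Figures were drawn with matplotlib 3.10.9.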

Additional observations from a re-analysis of the deposited data

How the results depend on the processing

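The count of fibrillar collagen genes past the threshold, 0 in edgeR, was 2 in DESeq2, 5 with no filter beyond 1 count in any library and 4 with the replicate number as a block, where 2.55%, 2.84% and 1.91% of all tested genes were called against 0.83%, and ran from 0 to 4 with each library left out, 4 without WT replicate 2 and without CharmeKO replicate 3. The count of pathway genes, also 0, was 8 in DESeq2, 14 with no filter and 10 with the block, beside the same shares of all genes, and ran from 0 to 7 with each library left out, 7 without WT replicate 2 and 2 without CharmeKO replicate 3, where 2.25% and 1.22% of all tested genes were called. The cause was not tested. Same-numbered libraries had correlations of 0.181, 0.0343 and 0.143 between their deviations from the group means. Those of differently numbered libraries ran from −0.198 to 0.0356. The sources used here state no pairing, and the main fit did not take the numbers as pairs. Whether they mark a batch was not tested. The log2 fold change of *Col11a1* ran from −0.043 without WT replicate 3 to 0.69 without WT replicate 1. With 1 library left out, the difference in log2 ratio ran from −0.13 to 0.15 for *Col3a1* to *Col5a2*, from −0.041 to 0.28 for *Col5a1* to *Col5a3* and from −0.014 to 0.19 for *Col1a2* to *Col3a1*, and the low ends are reversals. Of 255 values over all settings, 221 kept their direction and side of the threshold or stayed close. Ratios and the summed level entered this tally by direction only, since their exact tests cannot pass the threshold. For them the replicate block repeats the main difference by construction. The tally is therefore not a measure of robustness for these values. *Col24a1* was not tested with a filter of 5 libraries. Depth limits *Col11a1* and *Col24a1*, and 3 libraries a group cannot reach p = 0.05 in a permutation test.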
